A study of Mus musculus with 4 samples.

Results

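The 9 genes described here are the transcription factors that set up and run the skeletal muscle lineage, together with 1 gene of muscle cell fusion. They are Pax7, Pax3, Six4, Myf5, Myod1, Myf6, Myog, Mef2c and Mymk, and all 9 were found among the 21887 protein-coding genes with a position on chromosomes 1 to 19, X or Y in RefSeq (GRCm38.p6, the assembly of mm10). For each gene the distance to the nearest H3K9me3 peak was taken on both sides, with the percent of bases under peaks in windows of 100 kb, 500 kb and 1 Mb centred on the gene midpoint. Each value was set beside the same value over all protein-coding genes. The genes were chosen by name and not by these values, though with earlier results of these data known. Myf5 and Myf6 are neighbours 5.92 kb apart on chromosome 10, so their windows are nearly the same and they count as 1 locus of 8.

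Pax7 and Pax3 encode paired-box factors that mark muscle progenitors, and Pax7 is the usual marker of the satellite cell, the stem cell of adult muscle. Myf5, Myod1, Myf6 and Myog encode the basic helix-loop-helix factors that commit a cell to muscle and drive its differentiation by binding E-boxes. Six4 and Mef2c encode co-acting regulators, and Mymk encodes myomaker, a membrane protein needed for myoblasts to fuse. H3K9me3 is a histone mark of silenced chromatin that packs repeats and genes of other lineages, and SETDB1 is one of the enzymes that write it.

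The cells were mouse muscle stem cells taken from muscle by magnetic sorting and grown in culture, described in the labels as a primary cell line. All carried the conditional allele labelled Setdb1lox/lox with a tamoxifen-inducible Cre named after Pax7. One culture was treated with 4-hydroxytamoxifen, which induces the deletion, and 1 with ethanol as control, both for 72 h. The genotype label reads Setdb1lox/lox;Pax7GakaCreERT3 for the 4-hydroxytamoxifen library and Setdb1lox/lox;Pax7GakaCreERT2 for the ethanol library, and its last digit runs on over the 2 input libraries, so the digit may not be a real difference. How the Pax7 allele was built, and the age of the animals, were not stated. Each treatment had 1 H3K9me3 library and 1 input library, and 1 peak list per treatment was analysed. No difference below therefore has a replicate check, and no p-value was computed. Peak lists of a silencing mark cannot show which cell type was present, and they do not measure whether Setdb1 was cut.

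The 4-hydroxytamoxifen list, called the deleted list here, had 113503 peaks on chromosomes 1 to 19, X and Y, and the control list had 105709. They covered 134 Mb and 133 Mb. Median peak width was 854 bp and 904 bp. The read depth behind the lists is unknown, and its part in any difference cannot be told apart from that of the mark, nor can fewer marked cells from less mark per cell. On the 7 chromosomes that hold the members, the covered length in the deleted list was between 0.925 and 1.23 times that in the control list. No member lies on chromosome 6, where that ratio was 0.504, or on X, where it was 2.26.

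None of the start sites of these genes that could be placed lay under a peak in either list. RefSeq promoter windows, each running from 250 bases before a start site to 50 after it, were given for 5 members, as 8 windows for Pax7, Six4, Myf5, Myog and Mef2c. Peaks touched 0 of these 8 in the deleted list and 0 in the control list. This is near the background, since peaks touched 1.83% of 21263 promoter windows of protein-coding genes in the deleted list and 1.82% in the control list. The 250 bases before the start site of a progenitor gene, a commitment gene and a differentiation gene are shown as the start-site stretches that carried no peak. Capitals mark matches on either strand to the E-box CANNTG and to CTANNNNTA, a loose form of the site for MEF2 factors.
Pax7, chr4:139832969-139833218, minus strand: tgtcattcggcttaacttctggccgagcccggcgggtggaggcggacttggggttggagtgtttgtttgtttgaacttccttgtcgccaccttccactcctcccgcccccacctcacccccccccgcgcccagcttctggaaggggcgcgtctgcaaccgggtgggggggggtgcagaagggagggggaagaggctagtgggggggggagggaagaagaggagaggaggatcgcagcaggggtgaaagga
Myf5, chr10:107486135-107486384, minus strand: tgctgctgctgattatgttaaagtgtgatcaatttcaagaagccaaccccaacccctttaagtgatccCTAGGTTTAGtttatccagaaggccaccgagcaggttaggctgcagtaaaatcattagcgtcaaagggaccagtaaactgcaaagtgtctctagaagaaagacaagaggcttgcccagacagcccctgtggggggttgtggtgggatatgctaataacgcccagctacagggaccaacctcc
Myog, chr1:134289754-134290003, plus strand: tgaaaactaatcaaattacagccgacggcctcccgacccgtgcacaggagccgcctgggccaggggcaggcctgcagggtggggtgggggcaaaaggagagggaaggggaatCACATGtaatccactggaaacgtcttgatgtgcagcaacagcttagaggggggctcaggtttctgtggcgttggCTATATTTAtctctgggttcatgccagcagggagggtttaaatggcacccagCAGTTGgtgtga

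The sequences are RefSeq's, build GRCm38.p6, written 5′ to 3′ along the gene. The Myog stretch held 2 E-boxes and 1 CTANNNNTA match, the Myf5 stretch held 0 E-boxes and 2 CTANNNNTA matches that overlap each other, and the Pax7 stretch held 0 of both. No CTANNNNTA match overlapped an E-box. Among all 21263 windows, 62.8% held an E-box and 17.4% held CTANNNNTA in the same 250 bases, so both are common letters and a match is no evidence of binding. The Pax7 stretch held 13 CpG pairs at a GC content of 65.2%, the Myog stretch 7 at 56.4%, and the Myf5 stretch 3 at 48.8%, against a median of 10 pairs and 55.6% over all windows. The nearest peak to the Myog window was 28.1 kb away in the deleted list against 28.3 kb in the control list. For the Pax7 window it was 27.8 kb and 63.9 kb, and for the Myf5 window 121 kb and 21.4 kb.

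The genes themselves were free of H3K9me3 peaks with 1 exception, which is the state of most protein-coding genes. A peak lay in the body of 1 of 9 members (Pax3) in the deleted list and of 0 of 9 in the control list, against 21.4% and 20.3% of all protein-coding genes. Counting the gene and 10 kb on both sides, 8 of 9 members were free of peaks in the deleted list and 9 of 9 in the control list, where 63.3% and 64.9% of all genes were. At 100 kb the members were near the background, since 5 of 9 windows held no peak in the deleted list and 4 of 9 in the control list, against 45.2% and 48.1% of all genes. The windows of Pax7, Pax3 and Mef2c lie almost or wholly inside these long genes. With windows of the gene plus flanks 3 of 9 members had no peak in the deleted list and 2 of 9 in the control list. The share of all genes was not taken for those windows, so these 2 counts have no background. The median distance from a member to its nearest peak was 27.4 kb in the deleted list against 28.5 kb in the control list, beside medians of 25.05 kb and 29.0 kb over all protein-coding genes. Farther from a peak than the median gene were 5 of 9 members in the deleted list and 4 of 9 in the control list.

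**Figure D1:**
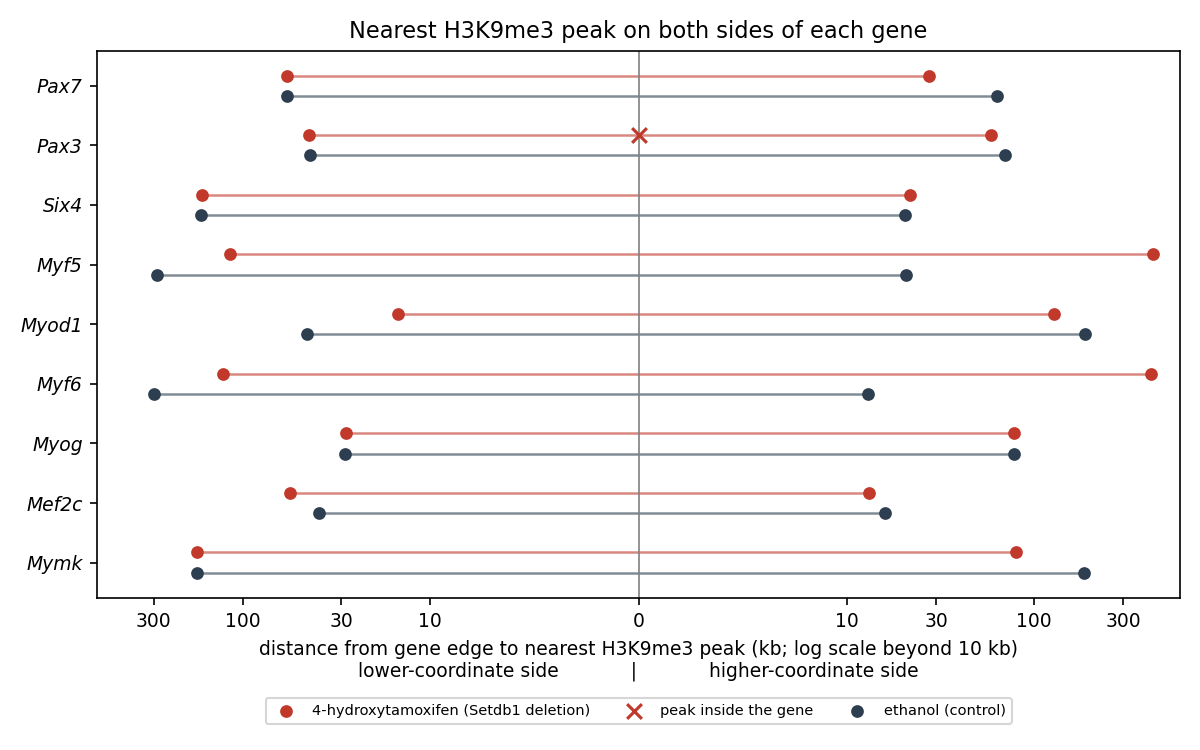
Distance in kb from each gene's edges to the nearest H3K9me3 peak on the lower-coordinate side (left) and higher-coordinate side (right), for the deleted list (red, upper) and the control list (dark, lower), with a log scale beyond 10 kb and a cross for a peak inside the gene. The Pax7, Pax3, Six4 and Myog lower-side points of both lists nearly coincide, and the Myf5 and Myf6 points change sides.

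Pax7, on chromosome 4 from 139737059 to 139833530, sat in a peak-free interval of 182 kb in the deleted list against 218 kb in the control list, with no other protein-coding gene wholly inside. On the lower-coordinate side the nearest peak was 58.2 kb away in the deleted list against 58.3 kb in the control list, and these 2 peaks overlapped each other. On the other side it was 27.4 kb in the deleted list against 63.6 kb in the control list. The closer peak of the deleted list, 805 bp wide at the authors' fold of 2.85, had no partner in the control list within 5 kb. Within 500 kb of the midpoint there were 14 peaks in the deleted list and 7 in the control list, and 4 in each had a partner. The unshared peaks of the deleted list lay mostly beyond the higher-coordinate end, which held 12 peaks in the deleted list and 3 in the control list. Several of the unshared ones lay in Igsf21, and Klhdc7a was the nearest neighbour on that side, at 129 kb. Coverage of 1 Mb was 1.21% in the deleted list and 0.786% in the control list, at percentiles 43.1 and 34.3 of all protein-coding genes. A percentile here is the share of genes with a lower value, with equal values split evenly.

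Pax3, on chromosome 1 from 78101267 to 78197136, was the single member with a peak inside it. The peak ran from 78117023 to 78117267 in the deleted list, 245 bp, close to the narrowest peak of that list (244 bp), with a fold of 2.65 and a −log10 q of 1.93, and the control list had no peak within 5 kb of it. It covered 0.256% of the gene. The strand and exons of Pax3 were not given in the table used, so whether the peak is intronic was not determined. Outside the gene the nearest peak on the lower side was at 44.6 kb and 44.1 kb in the deleted and control lists, and these peaks overlapped. On the higher side it was at 59.1 kb and 70.4 kb. Those were different peaks, and neither had a partner within 5 kb. Each list had 11 peaks within 500 kb, of which 7 in each were shared. Coverage of 1 Mb was 0.822% in the deleted list and 0.699% in the control list, at percentiles 31.6 and 31.4.

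Six4 encodes a sine oculis homeobox factor that acts with EYA proteins upstream of the myogenic factors. It lies on chromosome 12 from 73099609 to 73114031. Its peak-free interval was 202 kb in both lists. The nearest peak stood 21.9 kb away in the deleted list against 20.6 kb in the control list, on the side of Mnat1, whose body it lies in. There were 17 peaks within 500 kb in the deleted list and 16 in the control list, and 11 in each were shared. Coverage of 100 kb was 1.63% in the deleted list and 2.91% in the control list, and that of 1 Mb was 1.97% and 1.64%. The 1 Mb values stood at percentiles 59.0 and 57.2, so Six4 was slightly above the middle of all genes.

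Myf5 and Myf6, which encode the earliest and a late myogenic helix-loop-helix factor, lie on chromosome 10 from 107482908 to 107486927 and from 107492848 to 107494723. On their higher-coordinate side the control list held more peaks than the deleted list. The peak-free interval was 552 kb in the deleted list against 312 kb in the control list, and only 142 kb of it was free in both. In the deleted list it also held Ptprq and Otogl, and in the control list Lin7a. On the higher-coordinate side the nearest peak to Myf6 was 423 kb away in the deleted list against 13.04 kb in the control list. The lower side ran the other way, with the nearest peak to Myf5 at 117 kb in the deleted list against 287 kb in the control list. The 355 bp control peak beside Myf6, from 107507767 to 107508121, had a −log10 q of 1.28 and no partner within 5 kb in the deleted list.

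Within 500 kb of Myf5 there were 6 peaks in the deleted list and 11 in the control list, and 3 in each overlapped. Beyond the higher-coordinate end the deleted list held 2 peaks and the control list 9. Coverage of 500 kb was 0.215% in the deleted list and 0.646% in the control list for both genes, at percentiles 18.0 and 39.2. Coverage of 1 Mb was 0.672% in the deleted list and 1.31% in the control list, a ratio of 0.513, at percentiles 26.2 and 49.8. With peaks of −log10 q of 2 or more alone, the nearest peak to Myf5 was at 288 kb in the deleted list against 287 kb in the control list. All peaks nearer than these, in both lists, were below that value.

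Myod1, which encodes the factor that can turn other cells into muscle, lies on chromosome 7 from 46376474 to 46379092. Of all members it had the lowest 1 Mb coverage in both lists, at 0.222% in the deleted list and 0.512% in the control list, at percentiles 10.5 and 24.2. The nearest peak was 14.8 kb away in the deleted list against 45.6 kb in the control list, on the lower-coordinate side. That deleted-list peak, from 46361379 to 46361665, was 287 bp wide with a fold of 3.08 and a −log10 q of 2.19, the highest of the deleted-list peaks within 500 kb, and the control list had no peak within 5 kb of it. Both lists had 5 peaks within 500 kb, and 1 of them, in Sergef, was shared. The shared peak was 747 bp wide in the deleted list and 2293 bp in the control list. The lower coverage of the deleted list thus went with narrower peaks, median 340 bp against 627 bp in the control list, and not with fewer.

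Myog, which encodes myogenin, the factor of terminal differentiation, lies on chromosome 1 from 134290004 to 134292548. Its flanking peaks were the best matched of all members. The nearest was 28.3 kb away in the deleted list against 28.5 kb in the control list, and on the other side 78.6 kb and 78.5 kb, and both pairs overlapped. The interval between them was 109 kb in the deleted list and 110 kb (109.6 kb) in the control list and also held Ppfia4 and Tmem183a. Of 13 peaks within 500 kb in the deleted list 7 had a partner, and of 8 in the control list 7 had one. Coverage of 100 kb was 2.14% in the deleted list and 0.329% in the control list. The shared peak at 28.3 kb was 1049 bp wide with a −log10 q of 2.67 in the deleted list, against 329 bp and 2.08 in the control list, and the deleted list had 2 further peaks beside it. Coverage of 1 Mb was 0.815% and 0.641% in the deleted and control lists, at percentiles 31.3 and 29.3.

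**Figure D2:**
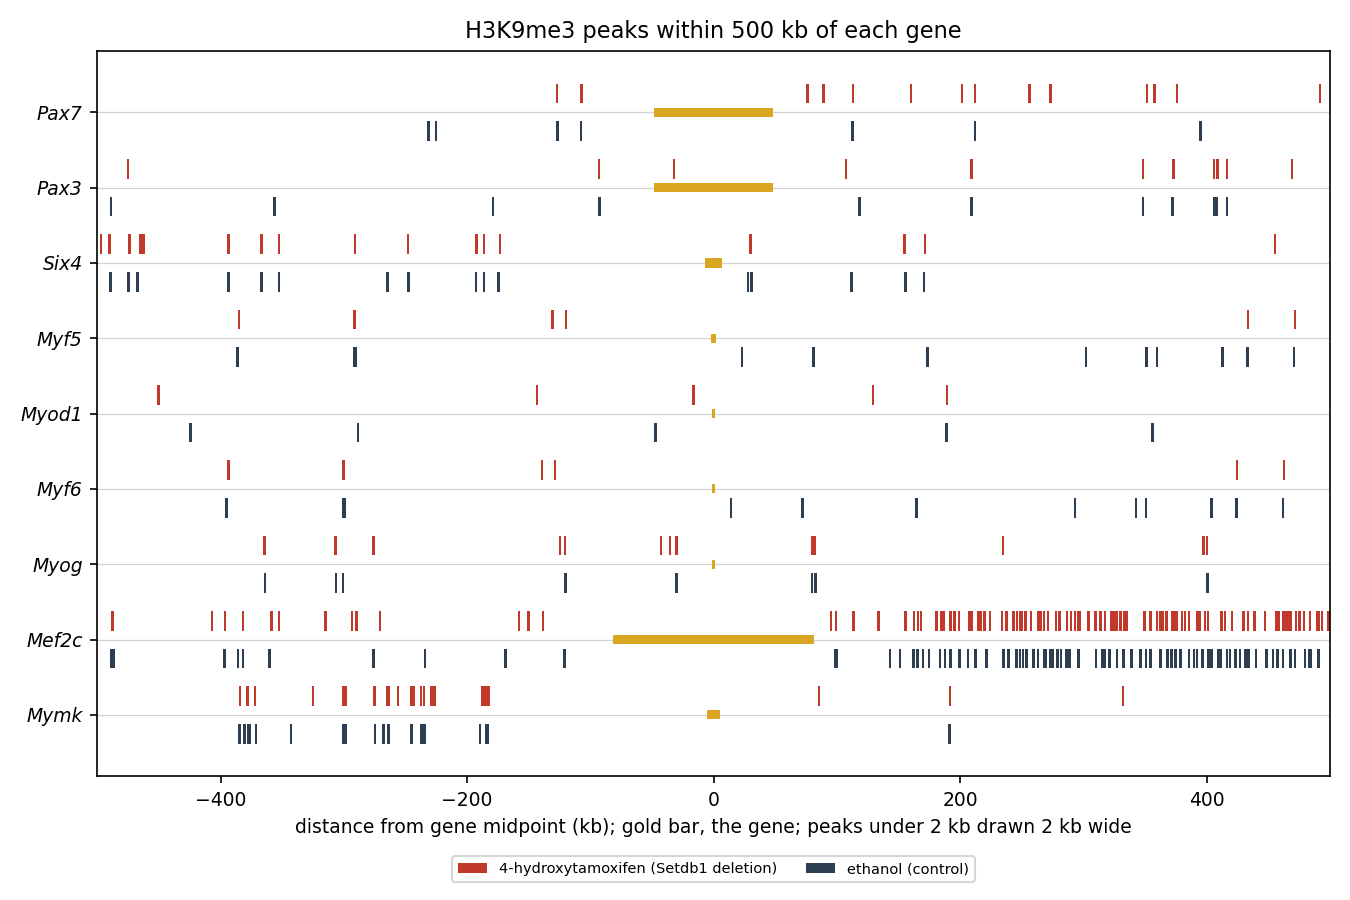
Every H3K9me3 peak within 500 kb of the midpoint of each gene (gold bar), with deleted-list peaks in red above the line and control-list peaks in dark below it, and peaks under 2 kb drawn 2 kb wide. Mef2c has 93 and 76 peaks, mostly on one side, Myod1 has 5 in each list, and the stretch to the right of Myf5 and Myf6 holds 2 and 9.

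Mef2c encodes a MADS-box factor that works with the myogenic factors and is also used in heart, neurons and bone. On chromosome 13 from 83504017 to 83667079, it was the member with the most H3K9me3 around it at 500 kb and 1 Mb in both lists. Coverage of 1 Mb was 11.6% in the deleted list and 9.39% in the control list, at percentiles 90.7 and 89.2 of all protein-coding genes. The gene itself, 163063 bp long, held no peak in either list. The nearest peak beyond its higher-coordinate end was 13.2 kb away in the deleted list against 16.0 kb in the control list, and on the other side 56.1 kb and 39.1 kb. The marks were one-sided, with 80 peaks on the higher side and 13 on the lower within 500 kb in the deleted list, and 66 and 10 in the control list.

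No other protein-coding gene touched the 1 Mb window of Mef2c. Its neighbours were Tmem161b at 555 kb on the higher side and Cetn3 at 1707 kb on the lower. In bins of 100 kb from the midpoint, coverage on the higher side first passed 10% between 100 and 200 kb in both lists. It reached 35.0% in the deleted list and 22.6% in the control list between 300 and 400 kb, and 37.5% and 21.9% between 900 and 1000 kb. Over 2 Mb the higher side averaged 16.4% in the deleted list and 15.1% in the control list, and the lower side 5.88% and 5.22%. Of the 40 bins, 19 had higher coverage in the deleted list, 19 lower and 2 the same. The 1 Mb difference of 2.21 points was at percentile 72.2 of genes in the same quintile of coverage, where the middle 90% of differences ran from -6.32 to 5.40 points.

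Mymk, on chromosome 2 from 27061636 to 27072161, had the longest clear stretch to its nearest peak in the control list, 177 kb, against 80.0 kb in the deleted list. The nearer deleted-list peak was 251 bp wide and had no partner within 5 kb. Its peak-free interval was 267 kb in the deleted list against 373 kb in the control list and held 13 and 15 other protein-coding genes, among them the Surf genes, Adamts13 and Adamtsl2. Next to that gene-rich interval lay a marked stretch around Abo, with coverage of 15.1% in the deleted list and 10.6% in the control list between 200 and 300 kb from the midpoint on the lower side. The peak at the edge of the interval was 7120 bp in the deleted list and 3752 bp in the control list, and these overlapped. Coverage of 1 Mb was 3.001% and 2.43% in the deleted and control lists, at percentiles 70.7 and 68.9, the second highest of the members.

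**Figure D3:**
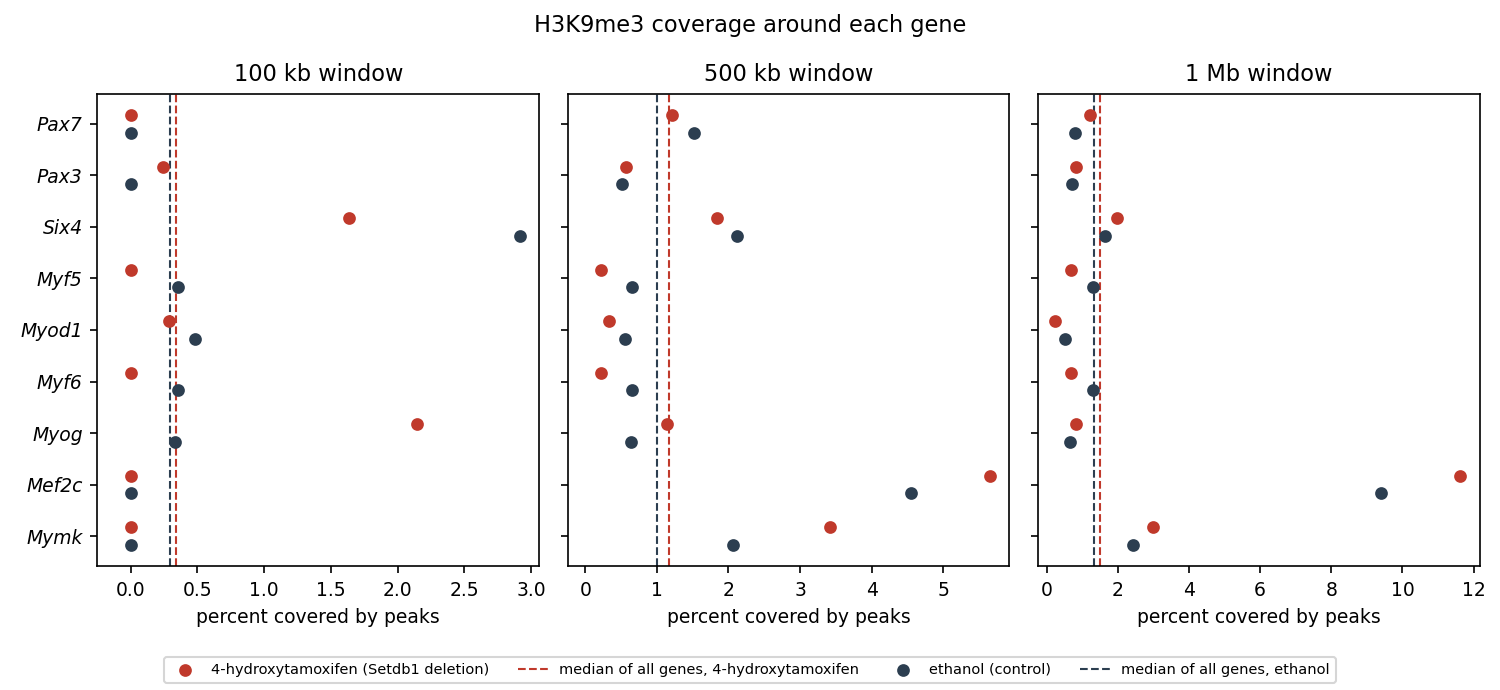
Percent of bases under H3K9me3 peaks in windows of 100 kb, 500 kb and 1 Mb centred on each gene, in the deleted list (red) and control list (dark), with dashed lines at the medians of all protein-coding genes. The axes differ between panels, and Mef2c stands at 11.6% and 9.39% at 1 Mb. At 1 Mb 6 of 9 members lie below the line in each list, with Myf5 and Myf6 almost on it in the control list.

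The members' median depended on whether Myf5 and Myf6 counted as 2 genes or as 1 locus. Over the 9 genes median 1 Mb coverage was 0.822% in the deleted list and 1.31% in the control list. Over the 8 loci it was 1.015% and 1.049%, beside 1.49% and 1.32% over all protein-coding genes. Below the medians of all genes lay 6 of 9 members, or 5 of 8 loci, in each list. In the control list Myf5 and Myf6 were barely below, at 1.311% against a median of 1.316% (percentile 49.8). By definition about as many genes lie below a median as above it. At 500 kb the median over the 9 genes was 1.15% in the deleted list and 0.646% in the control list, and over the 8 loci 1.18% and 1.08%. Over all genes it was 1.16% and 0.999%, and 5 of 9 members, or 4 of 8 loci, were below in each list. Order by 1 Mb coverage was the same in both lists at the top, where Mef2c, Mymk and Six4 came first, and at the bottom, where Myod1 came last. The members between them stood within 0.672% to 1.21% in the deleted list and 0.641% to 1.31% in the control list, and with 1 library per list there was no spread to judge their order by. Pax7, Pax3, Myf5, Myf6, Myod1 and Myog were also below the median gene of their own chromosome in both lists. Among genes in the same quintile of local gene density the same 6 were below the median in both lists, and Six4, Mef2c and Mymk above it.

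Just outside the genes no peak was found. In the first 10 kb outside the gene edges all 9 members stood at 0% in both lists, where the median of all genes was also 0% and the mean was 3.19% in the deleted list and 3.09% in the control list. The share of all genes at 0% there was not taken. It is at least 63.3% in the deleted list and 64.9% in the control list. Those shares were free of peaks over the gene and 10 kb on both sides. Between 10 and 50 kb the members' median was 0.945% and 0.444%, and the median of all genes 0.493% and 0.400%. Between 50 and 100 kb they were 0.251% and 0.819%, and 0.719% and 0.583%, so the members' medians did not climb steadily with distance. Between 500 and 1000 kb the members' median was 1.71% and 1.89%, against 1.88% and 1.69% for all genes.

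**Figure D4:**
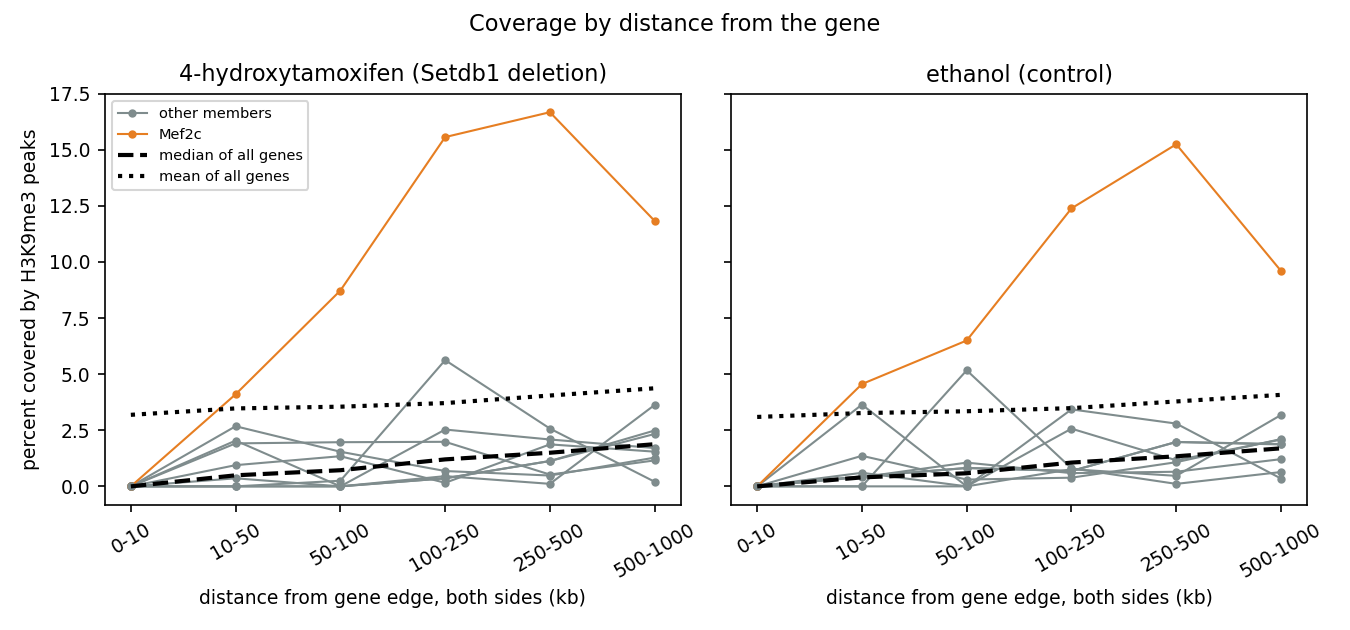
Percent of bases under H3K9me3 peaks by distance from the gene edges, both sides joined, for Mef2c (orange), the other 8 members (grey) and the median (dashed) and mean (dotted) of all protein-coding genes, in the deleted list (left) and control list (right). All members start at 0% in the first 10 kb, as does the median of all genes. Mef2c is the highest member at every distance from 10 kb outward in both lists.

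Farther out, some members faced dense domains of the mark and others none. A 100 kb bin with at least 10% coverage lay within 2 Mb of 5 of 9 members in the deleted list and 6 of 9 in the control list, against 68.8% and 62.1% of all protein-coding genes. Pax7, Pax3 and Myog had no such bin in either list. Six4 had 0 in the deleted list and 1 in the control list. Myod1 had 11 in the deleted list and 10 in the control list, all from 800 kb outward on the higher-coordinate side. The 10 bins dense in both lists held 8 protein-coding genes, all of the Mrgpr family of sensory neuron receptors, such as Mrgpra1 and Mrgprb4. Coverage over those 2 Mb averaged 12.6% in the deleted list and 8.89% in the control list, while the other side of Myod1 stood at 0.553% and 0.443%. Myf5 had 6 such bins in each list, between 900 and 1600 kb on the lower side, where Ppfia2 was the one protein-coding gene. Bins set from the Myf6 midpoint were dense in both lists only between 1100 and 1600 kb. Those held 0 protein-coding genes, so the place of Ppfia2 depends on where the bins start.

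**Figure D5:**
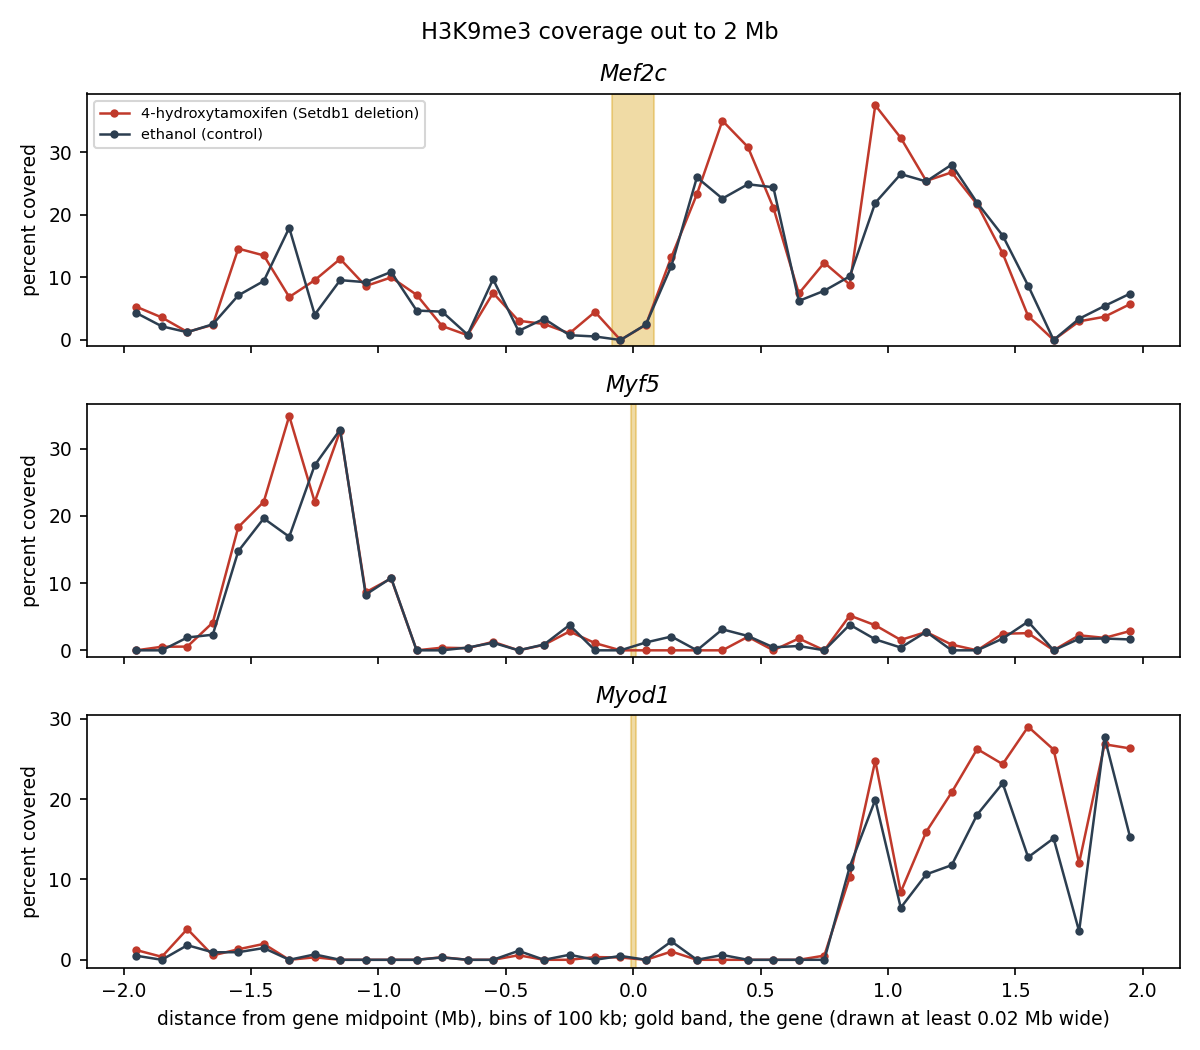
Percent of each 100 kb bin under H3K9me3 peaks out to 2 Mb from the midpoints of Mef2c, Myf5 and Myod1, in the deleted list (red) and control list (dark). The dense domains begin at 100 kb for Mef2c, at 900 kb on the left of Myf5 and at 800 kb on the right of Myod1, in both lists.

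Between the lists, 6 of 9 members had higher 1 Mb coverage with the deletion and 3 lower. Over all protein-coding genes 13910 had higher coverage, 7390 lower and 587 the same, so most members and most genes had the same direction. The median difference was 0.174 points for the members and 0.141 points for all genes. At a ratio of 1.5 or more, chosen after the values were seen, 1 of 9 members was higher in the deleted list, against 22.9% of all genes. This was Pax7, with a ratio of 1.54, while at 500 kb its coverage was lower in the deleted list, 1.21% against 1.52% in the control list. At the same ratio 3 of 9 were lower, against 9.91% of all genes. These were Myod1, with a ratio of 0.433, and Myf5 and Myf6, which share their peaks, so they are 2 loci of 8. Within genes of the same quintile of coverage, the Myf5 difference of -0.639 points stood at percentile 1.19 and the Myod1 difference of -0.290 points at 1.29. The middle 90% of differences there ran from -0.429 to 0.656 points for the quintile of Myf5 and from -0.177 to 0.344 points for that of Myod1. The Myf5 difference rests on 6 and 11 peaks and the Myod1 difference on 5 and 5, in the deleted and control lists, and neither has a replicate. With peaks of −log10 q of 2 or more alone, the Myf5 difference was -0.279 points and the Myod1 difference turned to 0.0287 points.

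Within 500 kb of a member lay 176 peaks of the deleted list and 149 of the control list, of which Mef2c supplied 93 and 76. Their median width was 809 bp in the deleted list and 937 bp in the control list, beside 854 bp and 904 bp in the whole lists. Without Mef2c it was 739 bp in the deleted list and 898 bp in the control list. A −log10 q of 2 or more was held by 14.8% of the deleted-list peaks and 15.4% of the control peaks near all members. Without Mef2c the shares were 20.5% and 24.7%, and in the whole lists 11.5% and 18.8%. The control share was thus below that of the whole list with Mef2c and above it without. With Mef2c included, the highest −log10 q near a member was 2.70 in the deleted list and 3.37 in the control list. The whole lists reached 1720 (1720.2) and 1505. A partner in the other list, by an overlap of 1 bp or more, was found for 50.6% of the 176 deleted-list peaks (Wilson interval 43.2 to 57.9%). It was found for 59.1% of the 149 control peaks (51.0 to 66.6%). In the whole lists it was 50.1% (49.8 to 50.4%) and 53.0% (52.7 to 53.3%), within those intervals. Without Mef2c the overlap shares were 53.0% (42.4 to 63.4%) in the deleted list and 60.3% (48.8 to 70.7%) in the control list. Both whole-list overlap shares lie within these intervals too. With a partner within 5 kb the shares near members were 76.1% (69.3 to 81.8%) in the deleted list and 81.2% (74.2 to 86.7%) in the control list, against 82.1% and 84.5% in the whole lists. Without Mef2c these shares were 63.9% (53.1 to 73.4%) in the deleted list and 69.9% (58.6 to 79.2%) in the control list. Both were below the whole-list shares. The intervals cover counting error only. They treat neighbouring peaks of 1 library as independent, which they are not, so they do not test a difference. Near Mef2c, where peaks were densest, 81 of 93 deleted-list peaks had a partner within 5 kb and 45 overlapped one. In the control list it was 70 and 44 of 76. The part of peak density in the shares within 5 kb was not tested.

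The related lists are read against all genes, of which 45.2% had no peak in 100 kb in the deleted list and 48.1% in the control list, with median 1 Mb coverage of 1.49% and 1.32%. Of 16 genes of helix-loop-helix partners and inhibitors, such as the E proteins and ID proteins, 8 had no peak in 100 kb in the deleted list and 7 in the control list, which is near those shares, and median 1 Mb coverage was 1.201% and 1.12%. Twist1, an inhibitor of myogenic factors, had the highest of them in the control list, at 5.41% in the deleted list and 4.89% in the control list. For 15 MEF2 family members and cofactors, 14 windows held no peak in the deleted list and 13 in the control list, the largest shares of the 9 lists. Such windows can miss peaks inside a long gene, as for Mrtfb in both lists. In the deleted list 2 of 15 held a peak in the gene body, against 21.4% of all genes. In the control list it was 3 of 15, against 20.3%. Kat2b, a histone acetyltransferase gene, was the outlying member in 1 Mb coverage, at 17.2% and 13.3%. In 19 further regulators of early muscle progenitors the median was 1.46% in the deleted list and 1.63% in the control list. Dach2 on X was at 6.40% in the deleted list and 2.44% in the control list, and Met on chromosome 6, a receptor gene of migrating muscle precursors, at 0.505% and 1.63%.

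Of 26 genes of the satellite cell surface and niche 16 had no peak in 100 kb in the deleted list and 18 in the control list, with median 1 Mb coverage of 1.33% and 0.965%. At a ratio of 1.5 or more 7 of 26 were higher in the deleted list and 3 lower, near the shares of 22.9% and 9.91% over all genes. Sdc3, a proteoglycan of satellite cells, was at 1.93% in the deleted list and 0.827% in the control list. Calcr, the calcitonin receptor of quiescent satellite cells, lies on chromosome 6 and was at 1.93% and 3.31%. Itga7, an integrin gene used to sort these cells, was at 6.07% and 6.46%. Of 16 fusion genes 11 had no peak in 100 kb in the deleted list and 11, not all the same genes (Dock1 and Cd81 differ), in the control list, and the nearest peak to Mymx, the partner of Mymk, was 237 kb away in the deleted list against 134 kb in the control list. Adgrb3 lay in a marked region at 19.7% and 20.5%.

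Contractile genes had the largest median distance to a peak of the 9 lists. Over 25 of them it was 70.8 kb in the deleted list against 70.7 kb in the control list. Still, 3 of 25 held a peak in the gene body in the deleted list and 2 in the control list, against 21.4% and 20.3% of all genes. At a ratio of 1.5 or more in 1 Mb coverage, 11 of 25 were higher in the deleted list and 3 lower, against 22.9% and 9.91%. Several myosin genes of chromosome 11 were among the 11, and genes with overlapping windows are not independent. Median 1 Mb coverage was 1.10% and 0.706%, with 18 of 25 below the median gene in the deleted list and 19 in the control list. Myh2, a fast myosin gene, was at 2.48% and 1.41%. Medians over 22 marker genes for non-myogenic cells found in muscle were 1.01% in the deleted list and 1.1998% in the control list, with Adgre1, the macrophage marker, at 16.5% and 15.6% and Kdr, the endothelial receptor, at 6.004% and 2.60%.

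Transcription factor genes of other lineages lay nearer to peaks than the muscle ones. The median distance over 26 of them was 8.17 kb in the deleted list against 8.66 kb in the control list, and 6 of 26 had no peak in 100 kb in the deleted list and 8 in the control list. Their median 1 Mb coverage was 1.16% and 1.11%. Nanog, a pluripotency gene on chromosome 6, was at 7.04% and 10.3%, and Tfap2c at 3.63% and 1.55%. The 12 paralogues of Pax7, Pax3 and Six4 had a median distance of 4.13 kb in the deleted list against 9.07 kb in the control list and a median 1 Mb coverage of 2.73% and 2.43%. Pax9 stood highest at 11.5% and 7.06%. These lists were compared by their values alone, and the difference from the members was not tested. In 6 of the 9 lists the gene with the largest negative difference lay on chromosome 6, where coverage as a whole was 5.17% in the deleted list and 10.2% in the control list.

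The protein-coding gene most like each member was sought on another chromosome, by the smallest sum of percentile differences over 10 values (both distances and 3 coverages in each list). Azi2 was most like Pax7, with a sum of 35.0, and Herc2 most like Mef2c, with 36.9. Saa3 was most like both Myf5 and Myf6, with 62.0 and 56.3, and Bbox1 most like Myod1, with 61.6. For Pax3, Six4 and Myog the closest were Cdkal1, Pkib and Clvs1, with sums of 45.7, 39.2 and 37.8. For Mymk it was D17H6S56E-5, with 28.4. The largest sums, those of Myf5, Myf6 and Myod1, mark the loosest matches.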

How the data were processed

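H3K9me3 was profiled by immunoprecipitation of chromatin cut with micrococcal nuclease, and sequencing, in 1 4-hydroxytamoxifen and 1 ethanol culture. BWA 0.7.17-r1188, MACS2, ChIPseeker 1.30.3 and mm10 come from the submitters' processing notes. For MACS2, the version and settings, the use of inputs and any pooling are not given in the sources used here. The deposited lists of broad peaks give each peak's fold enrichment, a linear ratio by the authors, −log10 of its p-value and q-value as deposited, and a deposited score of 10 times the −log10 q cut to a whole number (3 and 5 peaks of the deleted and control lists differ). These were used only to describe or filter peaks within a list. The peak names carry KO and WT with a replicate number that differs from the labels, so lists were assigned by treatment.

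From these, merged peaks gave distances to gene edges and covered bases, in Python 3.11.15 with numpy 2.4.6, pandas 2.3.3, matplotlib 3.10.9 and scipy 1.17.1. Gene positions came from RefSeq GRCm38.p6, which gave no strand for genes, so sides are named by coordinate. Windows were cut at the last gene or peak of a chromosome. Peaks on unplaced scaffolds were left out, and neither input library was analysed here. The code was tested on simulated peaks against a base-by-base count. All 174 genes of the 9 lists matched, 1 by a synonym, and 3 are in 2 lists. Genes were named by a rule: every member, in each list the genes with the largest positive and negative 1 Mb difference and the highest control coverage, the genes in a member's peak-free interval, and the gene most like each member. Those in the interval of Six4 are not reported here. Others named were chosen after their values were seen. The members and lists were chosen with earlier results of these data known. With 1 library per group no test was possible.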

Additional observations from a re-analysis of the deposited data

How the results depend on the processing

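Of 648 alternative values for 90 results, 434 stayed within 1.5 times the reported value, 207 moved by more and 7 turned sign. Counting Myf5 and Myf6 as 1 locus, or leaving out Mef2c, were both chosen after seeing the data. They moved no count, median distance or median 1 Mb value of the set among these results by over 1.5 times. The 500 kb medians of the set were not among these results. Neither did the same number of peaks in both lists. A background without chromosomes 6, 14, X and Y, which hold no member, could move only the counts below the median gene, and those stayed within 1.5 times. Stricter thresholds leave fewer peaks, and other causes were not tested. No replicate could be left out. No paired analysis was possible because only 1 library stood on each side. Read depth is unknown, which limits every comparison.

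Values are given for the deleted list and then the control list. With peaks at −log10 q of 2 or more, the median nearest distance of the members was 161 and 177 kb and median 1 Mb coverage 0.362% and 0.641%. The median difference was 0.0287 points, and 7 and 7 members had no peak in 100 kb. At 3 or more, 1173 and 1984 peaks were left, and 9 members had no peak in 100 kb in either list. The median distance was then 2738 and 821 kb, and median coverage was 0% in both lists with a median difference of 0 points. The median of all genes was then 0 too, so 0 members were below it. With peaks at or above the median fold, 6 and 7 members had no peak in 100 kb, and the control distance was 71.0 kb. Median coverage was 0.501% and 0.860% and the median difference 0.0507 points. Joining peaks within 5 kb gave a median difference of 0.294 points. Windows of the gene plus flanks gave 3 and 2 members with no peak and a median difference of 0.318 points. The share of all genes without a peak was not taken under these filters and windows, so these counts have no background.

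The 1 Mb difference turned sign at −log10 q of 2 or more for Six4 (-0.535 points), Mymk (-0.518) and Myod1 (0.0287), and at 3 or more for Six4 (-0.150), Mymk (-0.375) and Pax3 (-0.109). It turned for Six4 (-0.0240) with peaks at or above the median fold.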
